A study of Mus musculus with 10 samples.

Results

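The genes followed here in RNA from a mouse small cell lung cancer (mSCLC) cell line were chosen by name for the reactions their enzymes carry out: Phgdh, Psat1 and Psph of serine synthesis, Shmt1 and Mthfd1 of the cytosolic folate arm, Shmt2, Mthfd2, Mthfd1l and Aldh1l2 of the mitochondrial folate arm, and Asns of asparagine synthesis. These 10 genes were 10 of 26335 rows of the deposited table, and all 10 were among the 12306 genes that passed the filter on low values (a mean log2 CPM above 0, where CPM is the count of a gene scaled to a common library total). The series compared 5 control libraries with 5 libraries of cells kept for 48 h with 250 μM stiripentol, an antiseizure drug, to ask how it alters gene expression. The labels name DMSO as the alternative to stiripentol in the culture. Both groups shared everything else: a single cell line, which came from a primary lung tumour of an animal with conditional gene deletion, that of Rb1 included, after delivery of Cre to the airways by adenovirus, grown in RPMI medium with serum. The titles number the libraries of each group but do not say that they were separate cultures, so the p-values measure the spread between libraries, which may be technical.

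Serine is made from a glycolytic intermediate in a short cytosolic pathway, and it gives a carbon unit to tetrahydrofolate when it is converted to glycine. The folate-bound unit is carried through parallel sets of enzymes in the cytosol and in mitochondria and is used for purines, thymidylate, methionine and mitochondrial translation. Many genes of serine synthesis and mitochondrial folate metabolism, together with Asns, are known targets of the transcription factor ATF4, which is made when amino acids are short or when mitochondria are impaired.

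The start-site regions of the genes were searched for letters that such factors are known to bind, because the genes are described below as a group. RefSeq promoters (build GRCm38.p6, 250 bases before to 50 bases after the start) were given for 9 of the 10 genes, and both strands were searched. The C/EBP-ATF response element, TGATGNAA, lay in the promoter of Asns alone, 1 of these 9 genes, and in 3.97% of the 32851 promoters in all. The core of the antioxidant response element, TGACNNNGC, lay in 3 of 9 (Phgdh, Psph and Asns) and in 12.4% of all promoters. The E-box CACGTG lay in 0 of 9 and in 7.15% of all promoters. Each match is given as a window of 30 bases on the strand of its gene, 5′ to 3′, with the matched letters in capitals. The response element of Asns began 23 bases before the start (position -23), at chr6:7693214-7693243 on the minus strand, within an exon of the gene in GENCODE M21 but outside its coding sequence. The antioxidant matches all read on the opposite strand to the gene, at positions -53 (Phgdh, chr3:98340003-98340032), 5 (Psph, chr5:129787230-129787259, in an exon outside the coding sequence) and -172 (Asns, chr6:7693362-7693391), all 3 genes being on the minus strand. None of the matches overlapped another, and a match is a description of letters only.
Asns, C/EBP-ATF response element: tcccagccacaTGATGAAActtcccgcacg
Phgdh, antioxidant response element core: gcccggggagGCGGAGTCAgcagagtttaa
Psph, antioxidant response element core: acgcccagttGCGACGTCAttgcgcatctg
Asns, antioxidant response element core: tatcctgcctGCAGTGTCAcagcaccttaa

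The libraries stood apart in a way that the treatment does not explain, and every value below was therefore also computed within the sets described here. Control libraries held 22375625 (control 5) to 65299372 reads, and the treated ones 55015760 to 60670901. In each group the libraries fell into a cluster of 2 and a cluster of 3 by their correlation across genes. Controls 4 and 5 formed the control cluster of 2 and stiripentol libraries 1 and 2 that of the treated group. Within a cluster, Pearson's r between libraries was 0.983 to 0.997 over genes, and between clusters of the same group 0.920 to 0.939. Libraries of 1 cluster may not be independent replicates, and the sources used here do not say. The clusters were matched between groups by their size alone, giving a 2-by-2 and a 3-by-3 comparison. The value written for a gene with no reads was -4.82 log2 CPM in controls 1 to 3 and -4.74 in the other 7 libraries, so the table held 2 normalization sets. Controls 1 to 3 are also the controls of the 3-by-3 comparison and all treated libraries belong to the other set, so in that comparison, and in its difference from the 2-by-2 comparison, treatment or cluster and normalization set cannot be told apart. Of the labelled cell type's markers, Insm1 had at most 10 reads in a library and Syp at most 20, while Ncam1 averaged 6.69 log2 CPM in control and 7.15 in stiripentol libraries. The keratins Krt8 and Krt18 averaged 10.13 and 10.33 log2 CPM in control and 9.77 and 9.86 in stiripentol libraries, with Krt8 called lower (adjusted p = 0.0202) and Krt18 not (adjusted p = 0.0839). The epithelial marker Epcam had at most 1 read, and summed CPM of the 4 epithelial markers was 2278 to 2598 in control and 1544 to 2145 in stiripentol libraries. Summed CPM of the 6 fibroblast markers was 402 to 684 in control and 144 to 182 in stiripentol libraries, with Thy1 at no more than 1 read and 4 of the 5 tested markers lower, and the sum of the 3 leukocyte markers in the table went from 6.42 to 18.6 up to 58.8 to 103, with Cd68 higher and Ptprc at no more than 3 reads. In bulk RNA, fewer cells of a type and less RNA per cell cannot be told apart, and the part of these markers in the results below was not tested.

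Of the 10 genes, 4 rose with stiripentol (Aldh1l2, Asns, Mthfd2 and Phgdh), 1 fell (Shmt1) and 5 did not pass the test (Psat1, Psph, Mthfd1, Shmt2 and Mthfd1l), at an adjusted p under 0.05 by limma across all 12306 genes. In the same test 13.6% of all genes were higher and 14.1% lower. The genes that rose belonged to all sets but the cytosolic folate arm, and the gene that fell was one of the cytosolic pair. An arm of 2 genes is too small to show a pattern of its own. Within clusters the arms were not so divided. Cytosolic Mthfd1 was higher in the 2-by-2 (0.59) and lower in the 3-by-3 comparison (-0.53), and mitochondrial Mthfd1l was lower in the former (-0.59). The same 4 genes had all 5 stiripentol libraries above all 5 controls, a separation that 13.0% of all genes showed, and no member had all 5 below all controls, as 14.3% of all genes did. The median log2 change was 0.61 over the 10 genes and -0.06 over all genes tested.

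**Figure D1:**
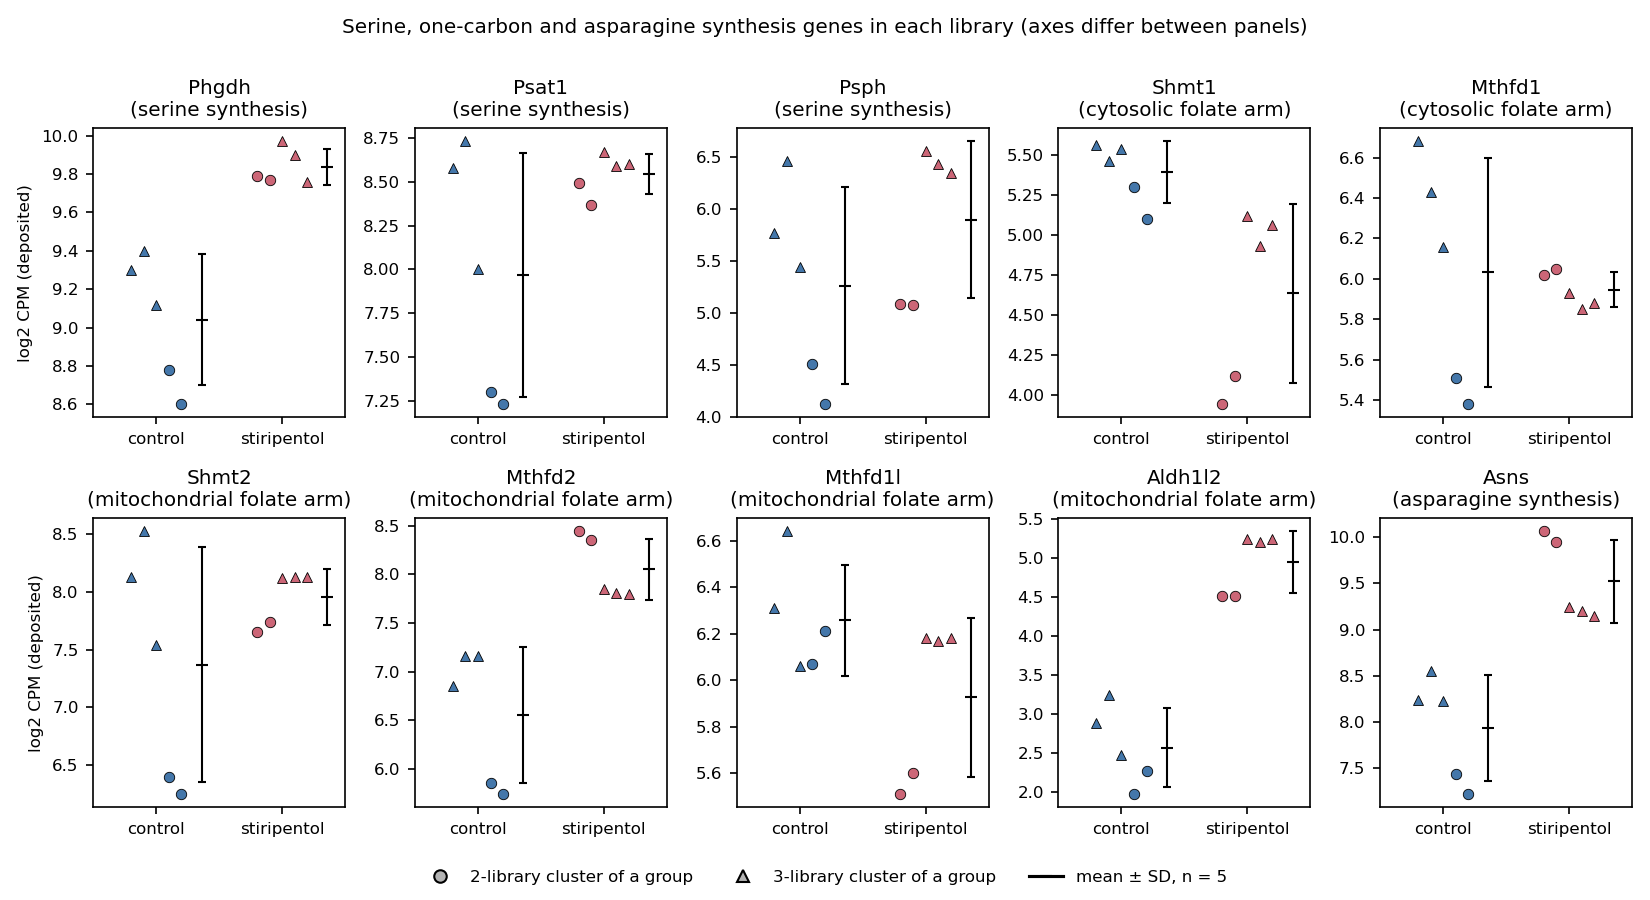
Each panel plots 1 gene, with the deposited log2 CPM of every library on the vertical axis and the group on the horizontal axis. Circles are libraries of the cluster of 2 and triangles libraries of the cluster of 3 in each group, and the bars give the mean ± SD of the 5 libraries. The stiripentol points lie above all control points for Phgdh, Mthfd2, Aldh1l2 and Asns, and the control circles lie below the control triangles in every panel but that of Mthfd1l.

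Phgdh, which oxidizes 3-phosphoglycerate in the first and committed step of serine synthesis (chr3:98313170-98339990, minus strand, GRCm38), had log2 CPM of 9.30, 9.40, 9.12, 8.78 and 8.60 in controls 1 to 5. In stiripentol libraries 1 to 5 it had 9.79, 9.77, 9.97, 9.90 and 9.76. All treated libraries were above all controls, and they lay much closer together than the controls did. The mean went from 9.04 ± 0.34 to 9.84 ± 0.09 log2 CPM (SD, n = 5 each), a log2 change of 0.80 (SE 0.15, limma adjusted p = 0.00439) or 1.74-fold. The log2 change was 1.09 in the 2-by-2 and 0.60 in the 3-by-3 comparison, and it passed in both (adjusted p = 2.61e-06 and 0.000882). Phgdh has near-identical transcripts (at least 95% identity over at least 100 bases) from 14 annotated genes, mostly processed pseudogenes, of which 8 were in the table. The most read of these, Gm7901, rose by 0.88 on the log2 scale (adjusted p = 0.00927), and adding the reads of all 8 to Phgdh left its log2 change at 0.80.

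Psat1, the aminotransferase of the middle step (chr19:15904678-15947337, minus strand), had log2 CPM of 8.58, 8.73, 8.00, 7.30 and 7.23 in controls 1 to 5. The stiripentol libraries had 8.49, 8.37, 8.67, 8.59 and 8.60. Controls 4 and 5 were far below everything else, and controls 1 and 2 were level with the treated libraries, so the groups overlapped. The log2 change of 0.58 (SE 0.28, 95% interval -0.04 to 1.20) did not pass the test (adjusted p = 0.145). Within clusters it was 1.17 in the 2-by-2 comparison, which passed (adjusted p = 1.59e-06), and 0.18 in the 3-by-3 comparison, which did not (adjusted p = 0.371).

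Psph, the phosphatase that releases serine in the last step (chr5:129765558-129787449, minus strand), had log2 CPM of 5.77, 6.46, 5.44, 4.51 and 4.12 in controls 1 to 5. Values of 5.08, 5.07, 6.55, 6.43 and 6.34 were found in stiripentol libraries 1 to 5. In both groups the cluster of 2 was the low one, and the groups overlapped, with stiripentol 3 above all controls and controls 4 and 5 below all treated libraries. The log2 change of 0.64 (SE 0.47, 95% interval -0.41 to 1.68) did not pass (adjusted p = 0.324). It was 0.76 in the 2-by-2 and 0.56 in the 3-by-3 comparison, and it passed in the former (adjusted p = 0.000656) and not in the latter (adjusted p = 0.0642). Psph shares 452 bases with Cct6a on the opposite strand, whose log2 change was -0.07 (adjusted p = 0.822), and whether the counting used strand is not given in the sources used here.

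In the cytosol, Shmt1 moves the carbon unit of serine to tetrahydrofolate and forms glycine (chr11:60788104-60811718, minus strand). Its log2 CPM was 5.56, 5.46, 5.54, 5.30 and 5.10 in controls 1 to 5 and 3.94, 4.12, 5.12, 4.93 and 5.06 in stiripentol libraries 1 to 5. Of the treated libraries 4 lay below all controls, 2 of them far below, and stiripentol 3 lay just above the lowest control. The mean went from 5.39 ± 0.19 to 4.64 ± 0.56 log2 CPM, a log2 change of -0.75 (SE 0.25, adjusted p = 0.0424) or 1.69-fold lower. The log2 change was -1.16 in the 2-by-2 comparison (adjusted p = 1.51e-05) and -0.48 in the 3-by-3 comparison (adjusted p = 0.000910). The call across all 10 libraries was lost when control 1, 2, 3 or 4 or stiripentol 1 or 2 was left out (adjusted p = 0.0597 to 0.0973), without the filter on low values (adjusted p = 0.0706), and in the 7 libraries of a single normalization set (log2 change -0.56, adjusted p = 0.329). It shares 184 bases with Smcr8 on the opposite strand (log2 change -0.13, adjusted p = 0.798).

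Mthfd1 is the cytosolic enzyme of 3 activities that interconverts the folate-bound carbon units (chr12:76255298-76319803, plus strand). Its log2 CPM was 6.68, 6.43, 6.16, 5.51 and 5.38 in controls 1 to 5. In the stiripentol libraries it was 6.02, 6.05, 5.93, 5.85 and 5.88. The treated libraries lay close together in the gap between the high controls 1 to 3 and the low controls 4 and 5. The log2 change over all libraries was -0.08 (SE 0.23, 95% interval -0.60 to 0.43, adjusted p = 0.805). Its direction differed between the clusters, with a log2 change of 0.59 in the 2-by-2 comparison (adjusted p = 0.000613) and -0.53 in the 3-by-3 comparison (adjusted p = 0.00590).

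Shmt2, the mitochondrial counterpart of Shmt1 (chr10:127517123-127522444, minus strand), had log2 CPM of 8.13, 8.52, 7.54, 6.40 and 6.25 in controls 1 to 5. Stiripentol libraries 1 to 5 had 7.65, 7.74, 8.12, 8.13 and 8.13. No gene of the 10 varied more among the controls (SD 1.01 log2 CPM), and the treated libraries lay within the control range. The log2 change was 0.58 (SE 0.41, 95% interval -0.31 to 1.48, adjusted p = 0.295). It was 1.37 in the 2-by-2 comparison (adjusted p = 7.79e-07), while in the 3-by-3 comparison it was 0.06 with a 95% interval of -0.43 to 0.55 (adjusted p = 0.811).

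Mthfd2, the mitochondrial dehydrogenase and cyclohydrolase that acts next on the carbon unit (chr6:83305691-83325908, minus strand), had log2 CPM of 6.85, 7.16, 7.16, 5.86 and 5.74 in controls 1 to 5. The values were 8.44, 8.35, 7.85, 7.81 and 7.80 in stiripentol libraries 1 to 5. The groups did not overlap, and the cluster of 2 was the low one in control but the high one after stiripentol. Mean log2 CPM went from 6.55 ± 0.70 to 8.05 ± 0.32, a log2 change of 1.49 (SE 0.30, adjusted p = 0.00581) or 2.82-fold. It was 2.59 in the 2-by-2 comparison (adjusted p = 1.73e-08) and 0.76 in the 3-by-3 comparison (adjusted p = 0.000274).

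Mthfd1l, which releases formate from the mitochondrial folate pool (chr10:3973118-4167081, plus strand), had log2 CPM of 6.31, 6.64, 6.06, 6.07 and 6.21 in controls 1 to 5. In stiripentol libraries 1 to 5 the values were 5.51, 5.60, 6.18, 6.17 and 6.18. Stiripentol 1 and 2 lay below all controls and the other 3 lay among them. The log2 change of -0.33 (SE 0.18, 95% interval -0.72 to 0.07) did not pass (adjusted p = 0.185). It was -0.59 in the 2-by-2 comparison (adjusted p = 0.000664) and -0.16 in the 3-by-3 comparison (adjusted p = 0.331).

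Aldh1l2, the mitochondrial dehydrogenase that oxidizes formyl-folate to carbon dioxide with formation of NADPH (chr10:83487450-83534140, minus strand), was the least read of the 10 genes, with 107 to 2198 reads in a library. It had log2 CPM of 2.89, 3.24, 2.47, 1.97 and 2.27 in controls 1 to 5 and 4.51, 4.51, 5.25, 5.20 and 5.25 in stiripentol libraries 1 to 5. Every treated library was above every control by more than 1 on the log2 scale. From 2.57 ± 0.51 the mean went to 4.94 ± 0.40 log2 CPM, a log2 change of 2.38 (SE 0.27, adjusted p = 0.000334) or 5.19-fold, the largest of the 10 genes. The log2 change was 2.39 in the 2-by-2 and 2.36 in the 3-by-3 comparison (adjusted p = 2.84e-07 and 3.56e-05). Aldh1l2 shares 1056 bases with D10Wsu102e on the opposite strand, which had 26589 reads over the 10 libraries against 10908 of Aldh1l2 and a log2 change of -0.17 (SE 0.22, adjusted p = 0.566).

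Asns, the synthetase that makes asparagine from aspartate and glutamine (chr6:7675169-7693254, minus strand), had log2 CPM of 8.24, 8.55, 8.23, 7.44 and 7.22 in controls 1 to 5. It reached 10.06, 9.95, 9.24, 9.20 and 9.15 in stiripentol libraries 1 to 5. As with Mthfd2, the groups did not overlap, and the cluster of 2 was the low one in control and the high one after treatment. The mean rose from 7.94 ± 0.57 to 9.52 ± 0.44 log2 CPM, a log2 change of 1.59 (SE 0.29, adjusted p = 0.00335) or 3.00-fold. The log2 change was 2.68 in the 2-by-2 and 0.86 in the 3-by-3 comparison (adjusted p = 1.73e-08 and 0.000179).

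The calls therefore depended on which libraries were compared. In the 2-by-2 comparison 8 members were higher and 2 lower (Shmt1 and Mthfd1l), where 25.7% of all genes were higher and 46.5% lower. In the 3-by-3 comparison 4 were higher (Phgdh, Mthfd2, Aldh1l2 and Asns) and 2 lower (Shmt1 and Mthfd1), where 37.7% of all genes were higher and 27.0% lower. When the libraries of each cluster were averaged first, leaving 2 means against 2, limma called 0 of the 10 genes, although Phgdh, Mthfd2, Aldh1l2 and Asns each had an unadjusted p under 0.05, as did 1116 of all genes. Each p-value from separate libraries thus treats those of 1 cluster as replicates.

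**Figure D2:**
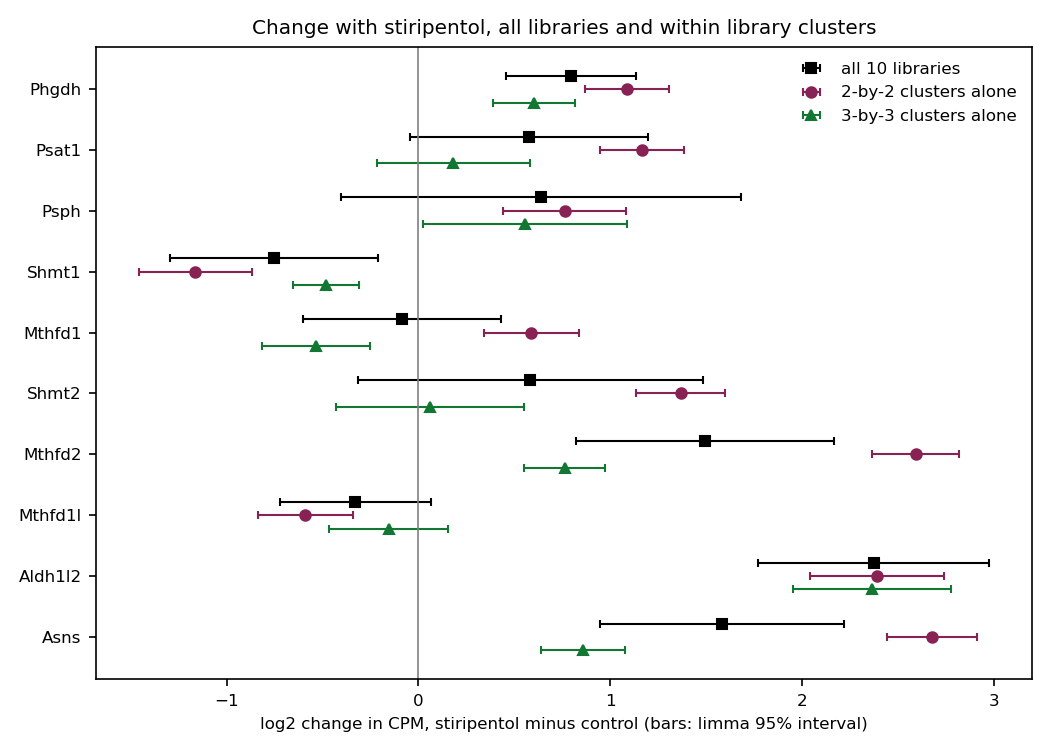
The log2 change in CPM (horizontal axis, stiripentol minus control) is plotted for each of the 10 genes over all 10 libraries (squares), in the 2-by-2 comparison (circles) and in the 3-by-3 comparison (triangles), with limma 95% intervals as bars. The circles of Mthfd2 (2.59) and Asns (2.68) lie far to the right of their triangles (0.76 and 0.86), the 3 marks of Aldh1l2 nearly coincide, and the circle and triangle of Mthfd1 lie on opposite sides of 0.

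The change with stiripentol differed between the 2 pairs of clusters for 7 of the 10 genes by an interaction term in limma, where 63.3% of all genes differed. The term is the 3-by-3 minus the 2-by-2 log2 change. Its p-values measure the spread within clusters alone, and the clusters were found from these same values. It was -1.83 for Mthfd2 (adjusted p = 1.66e-06), -1.82 for Asns (adjusted p = 2.83e-06) and -1.31 for Shmt2 (adjusted p = 0.00217). For Psat1, which also changed more in the 2-by-2 comparison, it was -0.98 (adjusted p = 0.00348), and for Mthfd1, whose changes had opposite signs, it was -1.12 (adjusted p = 0.000220). For Phgdh it was -0.49 (adjusted p = 0.0108), a call that was lost after quantile normalization (-0.28, adjusted p = 0.0916) and without control 5 (-0.40, adjusted p = 0.0527). Shmt1 had 0.68 (adjusted p = 0.00146), and its call was lost after quantile normalization (0.20, adjusted p = 0.223) and median centring (0.32, adjusted p = 0.0561). The term did not pass for Mthfd1l (0.43, adjusted p = 0.0674, but 0.58 and 0.00432 without control 2), Psph (-0.21, adjusted p = 0.600) and Aldh1l2 (-0.03, adjusted p = 0.937). Over all genes its median was 0.33 with the deposited values and -0.02 after quantile normalization.

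Levels in the clusters, given as a description, show where these differences lay. In control, 9 of the 10 genes (all but Mthfd1l) were lower in the cluster of 2 than in every library of the cluster of 3, as were 34.1% of all genes. The control cluster of 2 minus the cluster of 3 was -1.74 log2 CPM for Shmt2, -1.57 for Psph, -1.26 for Mthfd2 and -1.01 for Asns. After stiripentol 6 of the 10 genes were lower in the cluster of 2 without overlap, against 59.0% of all genes. The same difference was then -0.43 for Shmt2, 0.57 for Mthfd2 and 0.81 for Asns, and it stayed at -1.37 for Psph. The SD over the 5 libraries was smaller after stiripentol than in control for 8 of the 10 genes (not for Shmt1 and Mthfd1l) and for 45.6% of all genes.

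The cytosolic and mitochondrial arms were set side by side as ratios within a library, which do not depend on how a library was scaled. The log2 ratio of Shmt2 to Shmt1 was 2.57, 3.06, 2.01, 1.10 and 1.16 in controls 1 to 5 and 3.70, 3.61, 2.99, 3.20 and 3.07 in stiripentol libraries 1 to 5, with 4 treated libraries above all controls. It rose by 1.34 (two-sided exact permutation test of 5 against 5 libraries, p = 0.0159, 0.0238 after adjustment over 3 pairs). That call was lost without stiripentol 1 (1.24) or stiripentol 2 (1.26, adjusted p = 0.0714 for each). The change was 2.53 in the 2-by-2 and 0.54 in the 3-by-3 comparison, which cannot give a p below 0.333 and 0.1. Permuting only within clusters gave an exact p of 0.0333 (adjusted 0.05).

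For the next step, the log2 ratio of Mthfd2 to Mthfd1 was 0.17, 0.73, 1.00, 0.35 and 0.36 in controls 1 to 5. It was 2.41, 2.30, 1.92, 1.96 and 1.92 in stiripentol libraries 1 to 5, all above all controls. The ratio rose by 1.58 (exact permutation p = 0.00794, the smallest that 5 against 5 libraries can give, 0.0238 after adjustment). Its change was 2.00 in the 2-by-2 and 1.30 in the 3-by-3 comparison, and the exact p within clusters was 0.0167, the smallest possible there (adjusted 0.05).

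At the formate step the ratio of Mthfd1l to Mthfd1 behaved otherwise. Its log2 values were -0.37, 0.21, -0.11, 0.56 and 0.83 in controls 1 to 5 and -0.51, -0.45, 0.24, 0.32 and 0.31 in stiripentol libraries 1 to 5. Stiripentol 1 and 2 lay below all controls and the other 3 among them, and the change was -0.24 (exact permutation p = 0.429). It was -1.18 in the 2-by-2 and 0.38 in the 3-by-3 comparison, so that its sign depended on the clusters. These are changes of ratios within libraries, and they do not say which of the enzymes had the higher level.

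**Figure D3:**
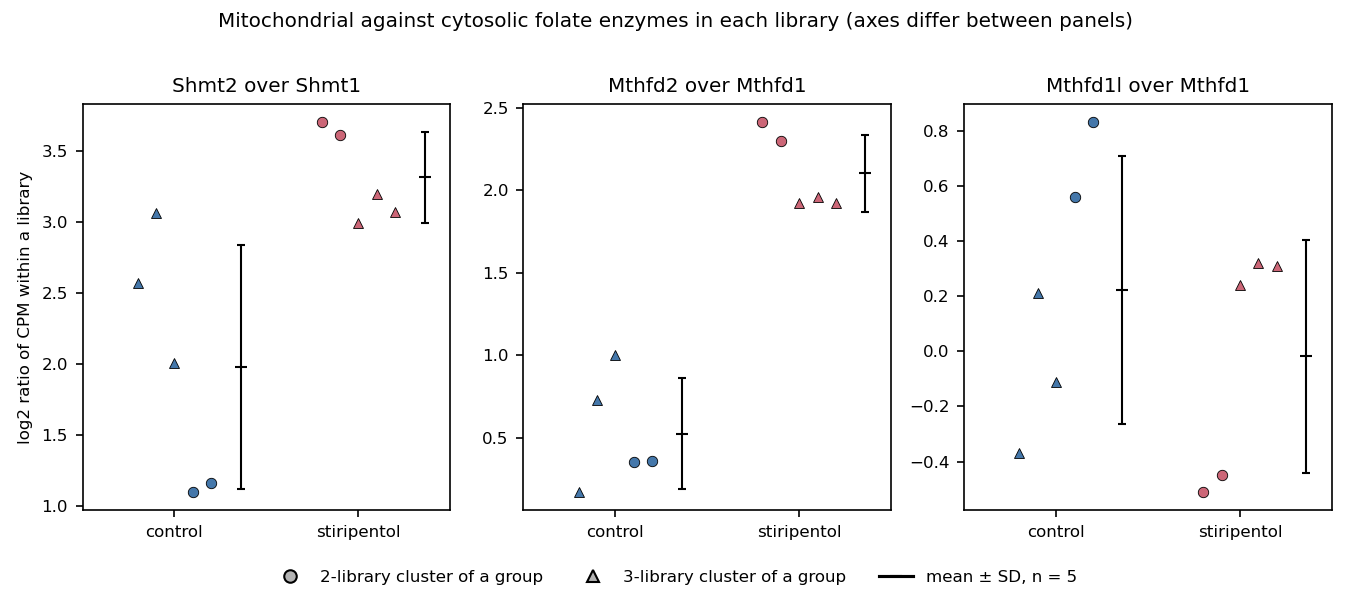
The log2 ratio of CPM within each library (vertical axis) is plotted for 3 pairs of mitochondrial and cytosolic enzymes in the control and stiripentol groups, with circles and triangles for the clusters of 2 and 3 libraries and bars for the mean ± SD (n = 5). The treated libraries lie above all controls for Mthfd2 over Mthfd1, and in 4 of 5 cases for Shmt2 over Shmt1, while for Mthfd1l over Mthfd1 stiripentol 1 and 2 lie below all controls and the other 3 among them.

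Neighbouring steps of the pathways were read from a list of 42 genes, of which 41 were in the table and 34 passed the filter. Of these, 8 were higher, 3 were lower and 23 did not pass the test, where 13.6% of all genes were higher and 14.1% lower. Their median log2 change was 0.04 against -0.06 over all genes. All 4 tested genes of aspartate and asparagine metabolism rose. These were the cytosolic aspartate aminotransferase Got1 (log2 change 1.16, adjusted p = 0.000181), the asparaginase-like Asrgl1 (0.97, adjusted p = 0.00294), Asnsd1, which holds an asparagine synthetase domain (0.70, adjusted p = 0.0295), and the mitochondrial aminotransferase Got2 (0.50, adjusted p = 0.0361). Got1 had 6.34, 6.50, 6.82, 6.49 and 6.46 log2 CPM in controls 1 to 5. In stiripentol libraries 1 to 5 it had 7.44, 7.58, 7.83, 7.79 and 7.79, a separation without overlap. The log2 change of Got2 was 0.96 in the 2-by-2 and 0.19 in the 3-by-3 comparison. It differed less for Got1 (1.03 and 1.25), Asrgl1 (0.95 and 0.98) and Asnsd1 (0.71 and 0.69). The call of Asnsd1 was lost without any of controls 1 to 3 or stiripentol 1 or 2 (adjusted p up to 0.0712) and in the 7 libraries of a single normalization set (log2 change 0.34, adjusted p = 0.343), and that of Got2 without any of controls 3 to 5 or any stiripentol library (adjusted p up to 0.0739).

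Cth, the enzyme that releases cysteine at the end of transsulfuration, a route that consumes serine, rose the most. It had 2.24, 2.40, 2.94, 1.52 and 1.60 log2 CPM in controls 1 to 5. In stiripentol libraries 1 to 5 it had 4.73, 4.74, 4.46, 4.33 and 4.26, a log2 change of 2.36 (SE 0.27, adjusted p = 0.000334) or 5.15-fold. Its log2 change was 3.17 in the 2-by-2 and 1.83 in the 3-by-3 comparison. Mat2a, the synthetase of S-adenosylmethionine, fell by 1.88 on the log2 scale (SE 0.49, adjusted p = 0.0173). Its values were 8.08, 8.15, 7.43, 6.42 and 6.38 log2 CPM in controls 1 to 5 and 4.33, 4.57, 5.90, 5.89 and 6.38 in stiripentol libraries 1 to 5. All treated libraries were at or below the lowest control, and the call was lost in the 7 libraries of a single normalization set (-0.99, adjusted p = 0.275). Cbs, which acts before Cth, had a log2 change of -1.01 that did not pass (adjusted p = 0.146). The change of Cbs was -1.85 in the 2-by-2 (adjusted p = 2.96e-07) and -0.46 in the 3-by-3 comparison (adjusted p = 0.13).

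The other genes of the list that rose were the glycine transporter Slc6a9 (log2 change 1.27, adjusted p = 0.00206), Mthfs, which returns formyl-folate to the active pool (0.90, adjusted p = 0.0297), and Amt of the glycine cleavage system (0.74, adjusted p = 0.0345). Those that fell were the mitochondrial serine carrier family member Sfxn3 (-0.61, adjusted p = 0.00116) and Mthfd2l, the paralog of Mthfd2 (-0.77, adjusted p = 0.0370). Mthfs changed by 1.52 in the 2-by-2 and 0.48 in the 3-by-3 comparison. The log2 change of Mthfd2l was 0.02 in the 2-by-2 and -1.30 in the 3-by-3 comparison. Its call was lost after quantile normalization (-0.62, adjusted p = 0.159) and without any of controls 1 to 3 or stiripentol 3 to 5 (adjusted p up to 0.0892). Leaving out a single library also ended the call of Mthfs (controls 1, 2, 3 and 5, stiripentol 1 and 2, adjusted p up to 0.0695) and of Amt (controls 1 to 3, stiripentol 2, 4 and 5, adjusted p up to 0.0828). In the 7 libraries of a single normalization set none of the 3 passed, with log2 changes of 0.44 for Amt (adjusted p = 0.271), 0.90 for Mthfs (adjusted p = 0.156) and -0.30 for Mthfd2l (adjusted p = 0.396), and Amt did not pass in the 2-by-2 comparison (0.46, adjusted p = 0.0861). Tyms, which uses folate-bound carbon to make thymidylate, did not pass over all 10 libraries (-0.79, adjusted p = 0.179). It was lower in the 2-by-2 (-0.69, adjusted p = 0.000685) and the 3-by-3 comparison (-0.85, adjusted p = 0.0115), as were 46.5% and 27.0% of all genes. Folr1, Aldh1l1, Ftcd, Gldc, Gnmt, Sds and Aspg were under the filter, and Bhmt was not used here.

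**Figure D4:**
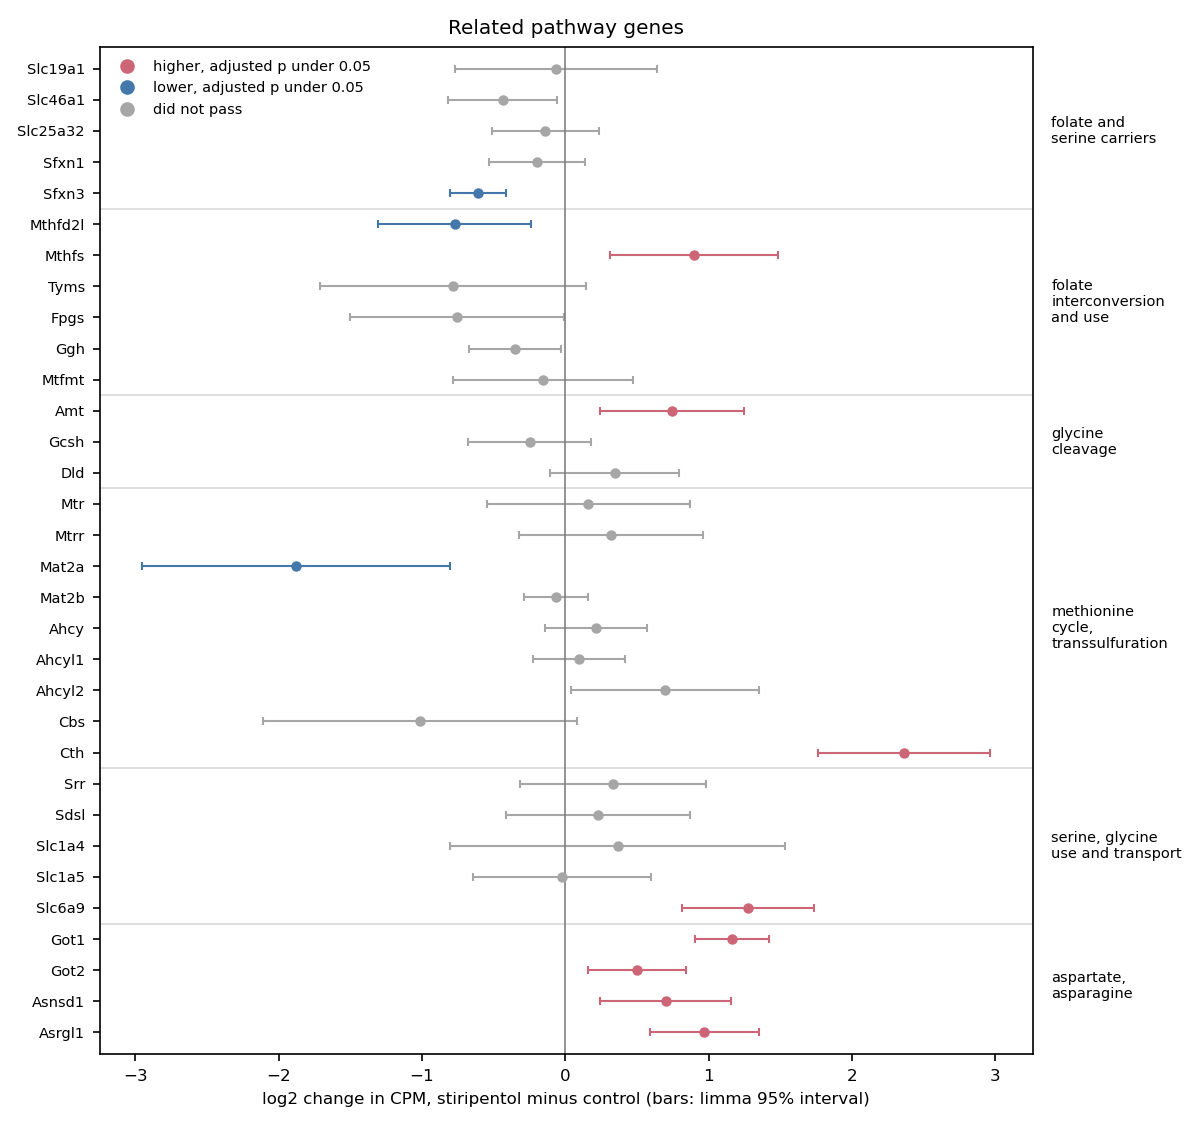
The log2 change in CPM with stiripentol (horizontal axis) is plotted for tested genes of the related list, grouped by function, with limma 95% intervals as bars, red for higher, blue for lower and grey for genes that did not pass. Cth (2.36) lies farthest to the right and Mat2a (-1.88) farthest to the left, and all 4 aspartate and asparagine genes are red.

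Regulators and stress genes to which several members are known to respond were read beside them. Atf4 itself had 9.04, 9.28, 8.92, 8.71 and 8.62 log2 CPM in controls 1 to 5 and 10.24, 10.22, 9.83, 9.87 and 9.83 in stiripentol libraries 1 to 5. It rose without overlap, by a log2 change of 1.08 (SE 0.15, adjusted p = 0.000819), with 1.56 in the 2-by-2 and 0.77 in the 3-by-3 comparison. Ddit3, a stress-induced partner of C/EBP factors, rose by 1.95 (adjusted p = 9.64e-05) and the pseudokinase gene Trib3 by 1.17 (adjusted p = 0.00546), while Atf5 fell by 0.86 (adjusted p = 0.0237, and 0.0575 without control 1). The log2 change of Atf5 was -0.32 in the 2-by-2 and -1.22 in the 3-by-3 comparison, and -0.33 in the 7 libraries of a single normalization set (adjusted p = 0.0587). The others tested did not pass, with log2 changes of 0.46 for Sesn2 (adjusted p = 0.396), 0.35 for Chac1 (adjusted p = 0.573), -0.18 for Nfe2l2 (adjusted p = 0.339), -0.23 for Ddit4 (adjusted p = 0.391) and -0.52 for Myc (adjusted p = 0.240). In the 2-by-2 and 3-by-3 comparisons Sesn2 changed by 0.24 and 0.60 (adjusted p = 0.211 and 0.0008985). Chac1 changed by -0.24 and 0.74 (adjusted p = 0.188 and 0.00416), and Nfe2l2 by -0.13 and -0.215 (adjusted p = 0.353 and 0.104). For Ddit4 these changes were -0.46 and -0.07 (adjusted p = 0.00361 and 0.816), and for Myc -0.45 and -0.58 (adjusted p = 0.00992 and 0.000627). Fgf21, Gdf15 and Mycn were under the filter. Fgf21 averaged -1.50 log2 CPM in control and 1.33 in stiripentol libraries, Gdf15 -1.90 and -2.17, and Mycn 0.95 and -1.17. The means of Gdf15 hide opposite directions. Gdf15 went from 0.54 to -2.54 in the clusters of 2 and from -3.52 to -1.91 in the clusters of 3, with 1 to 84 reads in a library. Among 12 proliferation genes 1 was higher (Mki67, log2 change 0.93, adjusted p = 0.0331) and 0 lower at the limma threshold (13.6% and 14.1% of all genes), with a median log2 change of 0.52. The call of Mki67 was lost without control 5 or any stiripentol library (adjusted p up to 0.0664). In the 2-by-2 comparison Mki67, Top2a, Mcm2, Mcm4, Mcm5, Ccna2, Ccnb1 and Cdk1 were called higher (log2 changes 0.63 to 1.67) and Mcm6 lower (-0.33). There 25.7% of all genes were higher and 46.5% lower. In the 3-by-3 comparison Mki67 and Mcm2 were higher (0.48 and 0.40) and Mcm6 and Mcm7 lower (-0.90 and -0.47). There the shares of all genes were 37.7% and 27.0%.

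The genes nearest in pattern were found by the root-mean-square difference of log2 CPM, centred on each gene's mean, over the 10 libraries. For Phgdh these were Bccip (0.0686), Ybx1 (0.0724) and C1qbp (0.0734). Mthfd2 was nearest to 5430416N02Rik (0.137), Asns (0.152) and Cyb5r1 (0.164), and Asns was nearest to Cdc25c (0.135), the aminoacyl-tRNA synthetase gene Eprs (0.150) and Mthfd2 (0.152). Mthfd2 and Asns were thus each among the 3 nearest genes of the other, out of all 12306 tested.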

How the data were processed

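RNA was sequenced from 5 control and 5 stiripentol libraries of a mouse small cell lung cancer line. The study's methods name a QuantSeq 3′ mRNA kit and the labels a TruSeq total RNA kit, and which was used was not settled. The deposited values are log2 CPM, which the authors' methods say were normalized with GENAVi, and the submitters' processing notes name the mouse build mm10. The aligner, annotation and counting strand are not given in the sources used here. A further 10 columns hold the authors' group means and comparisons (p- and q-values, fold and difference) and were not used. Of the symbols, 14 had become numbers and 42 were repeated, none of them a gene named here.

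Whole reads were recovered from the log2 values of each library (100% of the lower values within 0.05 of a whole number), and totals from these give the depth. Depth and reads describe counting error only. The test was limma 3.58.1 in R 4.3.3 (lmFit, eBayes with a mean-variance trend) on the deposited log2 CPM of the 12306 genes with a mean above 0, with Benjamini-Hochberg adjustment over all of them and a threshold of 0.05. Clusters were found by average linkage (scipy 1.17.1) on 1 minus Pearson's r within each group. Counts of libraries in the same cluster differed by more than counting noise (chi-square per gene of 7.28 or more). Whether the replicate numbers pair the libraries could not be decided from the values. With group means removed, the control and the stiripentol library of each number correlated at -0.240 to 0.061 over genes. Number 3 joined 2 libraries from clusters of 3 (0.061). Numbers 1, 2, 4 and 5 each joined a cluster of 2 to a cluster of 3 (-0.240 to -0.176), so pairing and cluster could not be told apart. Ratios were tested by exact permutation over all arrangements of the libraries. Near-identical transcripts were found with blastn 2.17.0+ in GENCODE M21 (GRCm38), and promoters came from RefSeq (GRCm38.p6). The fits were tested on simulated data.

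All 10 members were named with their values, as were every gene called of the related list, every measured stress gene, and the 3 genes nearest in pattern to Phgdh, Mthfd2 and Asns. Members and lists were chosen with earlier results of these data known, and no set of genes was tested as a set. Some items counted in the lists are not reported here by name or in the plot of related genes. Alternatives were other scalings, filters and pseudocounts, voom on the recovered reads, the replicate block, clusters as a covariate, alone or averaged, and leaving out each library.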

Additional observations from a re-analysis of the deposited data

Results flagged for a closer look

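For 7 of the 10 genes the change with stiripentol differed between the 3-by-3 and the 2-by-2 comparison by the limma interaction term, as it did for 63.3% of all genes. The difference in log2 change (3-by-3 minus 2-by-2) was -0.49 for Phgdh, -0.98 for Psat1, 0.68 for Shmt1, -1.12 for Mthfd1, -1.31 for Shmt2, -1.83 for Mthfd2 and -1.82 for Asns. The clusters were matched by size alone, and the correlation across genes between the cluster differences of the control and the stiripentol group was 0.211. What the clusters are was not tested. Among the 20 sets of 5 libraries (10 genes in 2 groups), 0 had a library far from the other 4 by Dixon's criterion, where chance gives about 1.0. Each set holds a cluster of 2 and a cluster of 3, so an extreme library mostly had a near neighbour. The criterion could then hardly flag a library, and the 0 does not show that none stood apart.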

How the results depend on the processing

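Phgdh, Mthfd2, Aldh1l2 and Asns stayed called higher under every alternative run but averaging within clusters, where limma called 0 members and 0 related genes in either direction (1116 of all genes had an unadjusted p under 0.05). The main counts were 4 members higher and 1 lower, and 8 related genes higher and 3 lower. Members higher were 8 in the 2-by-2 comparison and 7 within 1 normalization set (7 libraries). Of all 12306 genes 25.7% were higher and 46.5% lower in the 2-by-2, and 37.7% and 27.0% in the 3-by-3 comparison. Within 1 normalization set 1249 were higher and 1215 lower, with the replicate block 1020 and 1062, and with cluster as a covariate 2908 and 3336. Without the filter 1705 of 26335 genes were higher and 1747 lower. Members lower were 0 with the replicate block, without the filter and within 1 normalization set, and 2 with cluster as a covariate and in either pair of clusters alone. Related genes higher were 4 with the block, 5 without the filter and 14 in the 3-by-3 comparison. Related genes lower were 8 with cluster as a covariate, 12 in the 2-by-2 and 10 in the 3-by-3 comparison. Leaving out each library gave 4 to 4 members higher, 0 to 1 lower, 4 to 7 related genes higher, 2 to 3 lower, and 6 to 8 members whose change differed between clusters. Ratio changes were then 1.12 to 1.61 for Shmt2 over Shmt1 (not called without stiripentol 1 or 2, adjusted p = 0.0714), 1.49 to 1.70 for Mthfd2 over Mthfd1 and -0.39 to -0.09 for Mthfd1l over Mthfd1. The causes of these shifts were not tested beyond the smaller number of libraries. With cluster as a covariate Psat1, Psph and Mthfd1l passed (adjusted p = 0.0343, 0.0134 and 0.0483).

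Numbered libraries were not paired by any source. With the replicate block, Shmt1, Mat2a, Mthfs, Amt, Asnsd1, Got2 and Mki67 lost their call (adjusted p = 0.0504 to 0.110), all genes called fell to 1020 higher and 1062 lower (1674 and 1740 without it), and the exact p of the ratio changes (1.34 for Shmt2 over Shmt1 and 1.58 for Mthfd2 over Mthfd1) was 0.0625, the smallest possible (adjusted 0.0938). Within clusters alone these changes were 2.53 and 0.54 (Shmt2 over Shmt1, 2-by-2 and 3-by-3) and 2.00 and 1.30 (Mthfd2 over Mthfd1), and permuting within clusters, with changes of 1.34 and 1.58, gave adjusted p of 0.05 for both.

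Signs turned for Mthfd1 (-0.247 to 0.0766 leaving out each library, above 0 without control 1 or 2, 0.59 in the 2-by-2 comparison, 0.0279 averaged, 0.50 within 1 normalization set), for Mthfd2l (0.0151 in the 2-by-2 comparison), for Mthfd1l over Mthfd1 (0.38 in the 3-by-3 comparison), and for interaction terms near 0 of Psph (-0.431 to 0.0788 leaving out each library, above 0 without control 2) and Aldh1l2 (-0.226 to 0.162, above 0 without control 2 or 4, and 0.0583 with a pseudocount of 1 CPM). The median change of all genes was -0.06 as deposited, 0.05 after quantile normalization and 0.03 after median centring. The planned count-model alternatives and the interaction with the replicate block were not run. Adding the reads of its near-identical copies to Phgdh, and the alternatives for stress and proliferation genes, were chosen after seeing the data.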
